A study of Rattus norvegicus with 12 samples.

Results

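The Wnt pathway genes described here are 46 of the 12271 genes in the expression table. They were chosen by symbol alone: every numbered Wnt ligand, Frizzled (Fzd) receptor, Sfrp, Dkk and R-spondin (Rspo) gene, together with a fixed set of co-receptors, secretion factors, beta-catenin pathway components and feedback genes. By role they comprised 8 ligands, 2 secretion factors, 10 Frizzled receptors, 4 co-receptors, 9 secreted antagonists, 3 R-spondins, 3 genes of beta-catenin and its destruction complex, 3 Tcf/Lef factors and 4 feedback genes. A mean of at least 10 normalized counts over all libraries was reached by 43 of them. Wnt2b, Rspo2 and Rnf43 were below it and were not tested.

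RNA was sequenced from cultured primary cardiac fibroblasts of Sprague Dawley rats, taken from heart ventricles at postnatal day 2. The study asked how depletion of Yap and Wwtr1 (also called Taz), the transcriptional co-activators restrained by the Hippo kinases, alters fibroblast gene expression. Cells were transfected with universal negative control siRNA, Yap siRNA, Wwtr1 siRNA or Yap+Wwtr1 siRNA, with 3 libraries per group and 12 in all. Each siRNA was used at 25 nM, a pair of siRNAs was used per target, and the sample labels place RNA collection 48 hours after transfection. A passage of the study's methods instead counts 48 hours from a later change of medium, so the time after transfection is not certain. The methods state that replicates came from separate litters, so a replicate stands for a litter of pups and not for 1 animal. All groups were transfected, and untransfected cells were not analysed here. For the double knockdown the siRNA label lists the Wwtr1 reagents alone, and the series design text speaks of myocytes where its title and sample labels speak of fibroblasts.

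Wnt proteins are secreted lipid-modified ligands that bind Frizzled receptors. In the canonical branch, Frizzled and the co-receptors Lrp5 and Lrp6 stop the destruction complex from degrading beta-catenin (encoded by Ctnnb1), which then acts with Tcf/Lef factors on target genes. In the non-canonical branches, ligands such as Wnt5a signal through Frizzled receptors with Ror1 or Ror2, without beta-catenin. Sfrp proteins, Frzb and Wif1 bind the ligands outside the cell, whereas R-spondins increase the number of receptors at the surface. In the heart, Wnt signalling is best known from valve and chamber development and from fibroblast activation after injury.

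The targeted genes were lowered in every library of their groups. Yap1 stood at 17.7% of its negative siRNA mean after Yap siRNA and at 29.9% in the double knockdown. Wwtr1 stood at 23.7% after Wwtr1 siRNA and at 36.1% in the double knockdown. Double knockdown replicate 3 stood apart, with 1474 normalized counts of Yap1 where the other two had 713 and 739. Fibroblast markers summed to between 2772300 and 3961220 normalized counts in all libraries, but cardiomyocyte markers were also present at 35091 to 77608. Of the 9 macrophage markers in the table, the sum was 12379 to 18051 in negative siRNA cells and 4425, 8332 and 28012 in double knockdown replicates 1, 2 and 3. Endothelial markers summed to 1318 to 1721 in negative siRNA cells and to 2222 to 3003 in the double knockdown, where 6 of 10 were called higher, against 32.8% of all genes called in that comparison. In the same group 7 of 12 fibroblast markers were called (4 higher, 3 lower), 5 of 8 smooth muscle and pericyte markers (3 higher, 2 lower), 3 of 8 mesothelial and epicardial markers (2 higher, 1 lower), 2 of 9 cardiomyocyte markers (both higher) and 1 of 9 macrophage markers (lower). The part of these other cells in the results was not tested. In such bulk RNA, fewer cells of a type and less RNA per cell cannot be told apart.

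The promoters of members that moved in the double knockdown are shown for 5 genes: the feedback genes Axin2 and Nkd1, the secretion factor Porcn, the antagonist Sfrp2 and the receptor Fzd4. RefSeq promoter sequences of assembly GRCr8 matched 34 of the 46 symbols, and the 250 bases before each annotated start were searched on both strands. The Tcf/Lef motif, read as CTTTGAA or CTTTGAT, was found in 2 of the 34 (Axin2 and Nkd1) and in 7.58% of 27457 rat promoters. The motif of Tead factors, the DNA-binding partners of Yap and Wwtr1, was read as GGAATG. It was found in 1 of the 34 (Porcn) and in 11.8% of all promoters. These letters do not overlap between motifs. Each sequence is given 5′ to 3′ on the strand of the gene, with matches in capitals, and ends at the base before the start. Axin2 (chr10:94398535-94398784, plus strand) held Tcf/Lef letters beginning 232 and 132 bases before the start. Nkd1 (chr19:34722847-34723096, minus strand) held them 141 bases before it. Porcn (chrX:16957584-16957833, plus strand) held the Tead letters 198 bases before it. Sfrp2 (chr2:171387286-171387535, plus strand) and Fzd4 (chr1:152692257-152692506, plus strand) held neither motif in this window. A match is a stretch of letters and was not tested for binding.
Axin2: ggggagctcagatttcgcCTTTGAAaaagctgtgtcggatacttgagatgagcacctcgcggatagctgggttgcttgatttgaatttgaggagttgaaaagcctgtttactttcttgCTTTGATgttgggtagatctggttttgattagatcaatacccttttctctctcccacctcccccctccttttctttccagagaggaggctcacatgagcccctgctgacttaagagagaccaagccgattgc
Nkd1: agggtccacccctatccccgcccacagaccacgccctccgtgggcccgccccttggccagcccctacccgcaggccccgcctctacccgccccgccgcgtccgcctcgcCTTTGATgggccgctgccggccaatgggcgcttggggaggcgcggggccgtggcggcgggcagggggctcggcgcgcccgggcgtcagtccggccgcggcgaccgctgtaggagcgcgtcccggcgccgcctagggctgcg
Porcn: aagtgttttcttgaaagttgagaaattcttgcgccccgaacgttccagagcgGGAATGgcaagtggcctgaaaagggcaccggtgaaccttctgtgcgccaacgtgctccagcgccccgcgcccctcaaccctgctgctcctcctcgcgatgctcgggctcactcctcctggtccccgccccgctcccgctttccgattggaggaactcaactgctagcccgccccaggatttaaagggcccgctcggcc
Sfrp2: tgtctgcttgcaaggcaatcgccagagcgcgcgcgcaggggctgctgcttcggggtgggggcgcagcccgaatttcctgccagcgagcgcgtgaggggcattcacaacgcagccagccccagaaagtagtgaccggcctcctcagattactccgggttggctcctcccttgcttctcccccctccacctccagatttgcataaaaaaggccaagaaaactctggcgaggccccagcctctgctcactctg
Fzd4: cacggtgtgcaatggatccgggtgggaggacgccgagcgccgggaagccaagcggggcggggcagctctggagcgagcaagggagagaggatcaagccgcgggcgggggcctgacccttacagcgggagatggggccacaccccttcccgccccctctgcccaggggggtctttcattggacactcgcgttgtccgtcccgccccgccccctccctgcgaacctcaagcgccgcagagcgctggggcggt

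In the double knockdown, 22 of the 43 tested members changed against negative siRNA, 16 higher and 6 lower. This was 51.2% of the members. Over all 11871 genes tested the same test called 32.8%, with 17.1% higher and 15.6% lower. The members' median log2 fold change was 0.16, whereas that of all genes was 0.00. They comprised 3 of 7 tested ligands, both secretion factors, 6 of 10 Frizzled receptors, 3 of 4 co-receptors, 4 of 9 secreted antagonists, 1 of 2 R-spondins and 3 of 3 feedback genes. Wnt16, below a mean of 10 in negative siRNA cells, passed the filter through the knockdown groups where it was high, and without it 21 of 42 were called (50%). None of the 6 tested genes of beta-catenin, its destruction complex and the Tcf/Lef factors passed the test in this comparison by limma, edgeR or DESeq2, and none had an unadjusted p under 0.05, where 42.8% of all genes did. Ctnnb1 was called without double knockdown replicate 1. Changes were called from limma's adjusted p under 0.05, with Benjamini-Hochberg adjustment over all genes tested, and log2 fold changes are of the normalized count plus 1. The count was also 22 without double knockdown replicate 3, but with 14 higher and 8 lower. Of those 22, 20 were the same genes. Frzb and Wnt5b were lost, and Wnt4 and Rspo1 were gained as lower.

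**Figure D1:**
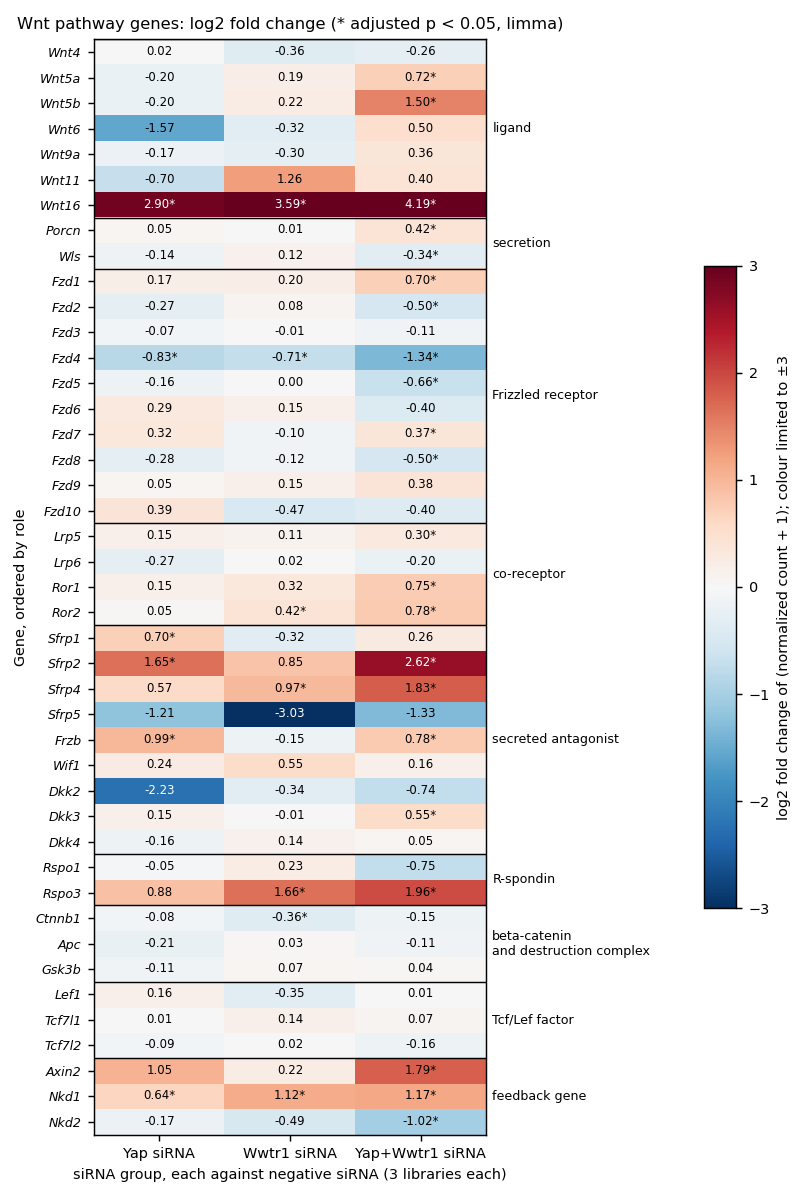
Log2 fold change of each of the 43 tested Wnt pathway genes (rows, ordered by role) in the 3 siRNA groups (columns), each against negative siRNA, with an asterisk where limma's adjusted p was under 0.05. Asterisks number 6 after Yap siRNA, 7 after Wwtr1 siRNA and 22 after both siRNAs, and no cell of the Tcf/Lef rows has one.

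Among the ligands, Wnt5a rose in the double knockdown and passed the test in neither single knockdown. Wnt5a, which signals mainly through non-canonical branches, read 296, 281 and 271 normalized counts in negative siRNA cells and 424, 500 and 478 in the double knockdown. All 3 double knockdown libraries lay above every other library of the series, the highest of which was 349. The log2 fold change was 0.72 (SE 0.14, adjusted p = 0.00213, limma). After Yap siRNA the values were 297, 233 and 212, and after Wwtr1 siRNA they were 349, 312 and 308. These single effects of -0.20 and 0.19 on the log2 scale did not pass the test.

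Wnt5b and Wnt16 had few counts in all groups and were singled out after their values were seen. Wnt5b, a close relative of Wnt5a, had 32.8, 26.0 and 53.7 normalized counts in negative siRNA cells and 104, 100 and 104 in the double knockdown (log2 fold change 1.50, SE 0.52, adjusted p = 0.0447, limma). Its call was lost in 8 of the 12 leave-one-out fits, with adjusted p up to 0.134 (without negative siRNA replicate 2), and also with a pseudocount of 0.1 and without a variance trend. Wnt16 had 5, 0 and 0 reads in negative siRNA cells, 11, 10 and 16 after Yap siRNA, 18, 28 and 17 after Wwtr1 siRNA, and 31, 41 and 37 after both siRNAs. Every knockdown library thus lay above every negative siRNA library. The adjusted p were 0.0436, 0.00937 and 0.00107 by limma. Its negative siRNA mean of 1.71 normalized counts was below the filter, so it was tested because the knockdown groups were high, and these p are given as a description. Its fitted fold depends on the pseudocount because most of the control libraries were at 0. The Yap siRNA call of Wnt16 was lost with pseudocounts of 0.1 and 10, with edgeR on the recovered reads (adjusted p = 0.0926), with only the compared groups in the fit, and in 10 of the 12 leave-one-out fits.

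The other tested ligands were not called. Wnt4 read 372, 433 and 362 normalized counts in negative siRNA cells and 240, 251 and 558 in the double knockdown, so that replicate 3 lay on the opposite side of the controls from replicates 1 and 2. Without double knockdown replicate 3 its log2 fold change moved from -0.26 to -0.66, with an adjusted p of 0.00588 by limma. Wnt9a, at 118 to 186 in negative siRNA cells and 183 to 200 in the double knockdown, had a log2 fold change of 0.36 (95% confidence interval -0.16 to 0.89). Wnt6 stayed at or below 45.6 normalized counts in every library, Wnt11 at or below 83.3 and Wnt2b at or below 14.0.

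The 2 genes of ligand secretion moved in opposite directions in the double knockdown. Porcn, the acyltransferase that attaches the lipid to Wnt proteins, had 596, 594 and 592 normalized counts in negative siRNA cells and 815, 820 and 751 in the double knockdown (log2 fold change 0.42, SE 0.12, adjusted p = 0.0181, limma). Its call was lost without double knockdown replicate 1, without replicate 2 and without negative siRNA replicate 3, where the adjusted p ran up to 0.0561. Wls (Wntless), the carrier that takes lipid-modified Wnts to the surface, had 18696, 19605 and 19283 in negative siRNA cells and 14935, 15581 and 14968 in the double knockdown. That is a fall to 0.790 of control (log2 fold change -0.34, SE 0.06, adjusted p = 0.000989, limma) with no overlap between the groups. The call of Wls held in each of the 12 leave-one-out fits.

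The Frizzled receptors moved in both directions in the double knockdown, with Fzd1 and Fzd7 higher and Fzd2, Fzd4, Fzd5 and Fzd8 lower. Fzd3, Fzd6, Fzd9 and Fzd10 did not pass the test. Fzd4, known as the receptor for norrin as well as Wnts and for its role in vessel growth, changed most among the receptors. It read 4566, 4749 and 5983 normalized counts in negative siRNA cells, 2240, 2822 and 3646 after Yap siRNA, 2416, 3223 and 3774 after Wwtr1 siRNA and 1845, 2304 and 1883 after both siRNAs. All 9 knockdown libraries lay below the lowest control. The log2 fold changes were -0.83 (adjusted p = 0.0345), -0.71 (adjusted p = 0.0387) and -1.34 (adjusted p = 0.00033) by limma. Each single knockdown call was lost in 6 of the 12 leave-one-out fits, with adjusted p up to 0.143 (Yap siRNA) and 0.148 (Wwtr1 siRNA), and without a variance trend. With the replicate number as a block and the double knockdown left out, both single calls strengthened to 8.4e-05 and 0.000123 (0.00561 and 0.00719 with the block over all 12 libraries).

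Fzd1 and Fzd2, close relatives of Fzd7, moved in opposite directions. Fzd1 read 14060, 11690 and 10336 normalized counts in negative siRNA cells and 18473, 20920 and 18999 in the double knockdown (log2 fold change 0.70, SE 0.11, adjusted p = 0.000705, limma). Fzd2 read 10530, 10049 and 10115 in negative siRNA cells and 6567, 7603 and 7559 in the double knockdown (log2 fold change -0.50, SE 0.07, adjusted p = 0.000373, limma). Neither gene's groups overlapped, and both calls held without any 1 library. After Wwtr1 siRNA, Fzd1 had a log2 fold change of 0.20 that was called only where a replicate block was added and the double knockdown was left out (adjusted p = 0.0488, limma). With the block over all 12 libraries its adjusted p was 0.185. After Yap siRNA, Fzd2 was at 8484, 8367 and 8686, all below the controls. That difference of -0.27 had an adjusted p of 0.0637 without the block, 0.0565 with the block over all 12 libraries and 0.0138 with the block and the double knockdown left out (limma). It was also called without double knockdown replicate 1 (0.0438) and by DESeq2 on the recovered reads (adjusted p = 0.0149).

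Fzd7, a receptor of both branches, rose from 1543, 1754 and 1685 normalized counts to 1970, 2427 and 2052 in the double knockdown (log2 fold change 0.37, SE 0.11, adjusted p = 0.0201, limma). The call was lost without double knockdown replicate 2 (0.0823) and also without negative siRNA replicate 1 (0.0727), both as adjusted p by limma. After Yap siRNA it read 1799, 2249 and 2189, above every control library, and passed the test only with the replicate block. Its adjusted p was 0.12 without the block, 0.0293 with it over all 12 libraries and 0.00934 with it and the double knockdown left out (limma). Fzd8 fell from 1757, 1438 and 1579 to 1108, 1327 and 969 (log2 fold change -0.50, SE 0.12, adjusted p = 0.00733, limma). Fzd5 fell from 181, 165 and 210 to 124, 119 and 106 (log2 fold change -0.66, SE 0.19, adjusted p = 0.0193, limma), a call lost without negative siRNA replicate 3 (adjusted p = 0.0805). In both genes the double knockdown libraries lay below all controls. Fzd6 was at 431, 347 and 414 in negative siRNA cells and at 330, 339 and 240 in the double knockdown, where its adjusted p was 0.123 by limma. Fzd3 had a log2 fold change of -0.11 (95% confidence interval -0.61 to 0.40), which was 0.12 without double knockdown replicate 3, and Fzd9 and Fzd10 stayed at or below 46.0 normalized counts.

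**Figure D2:**
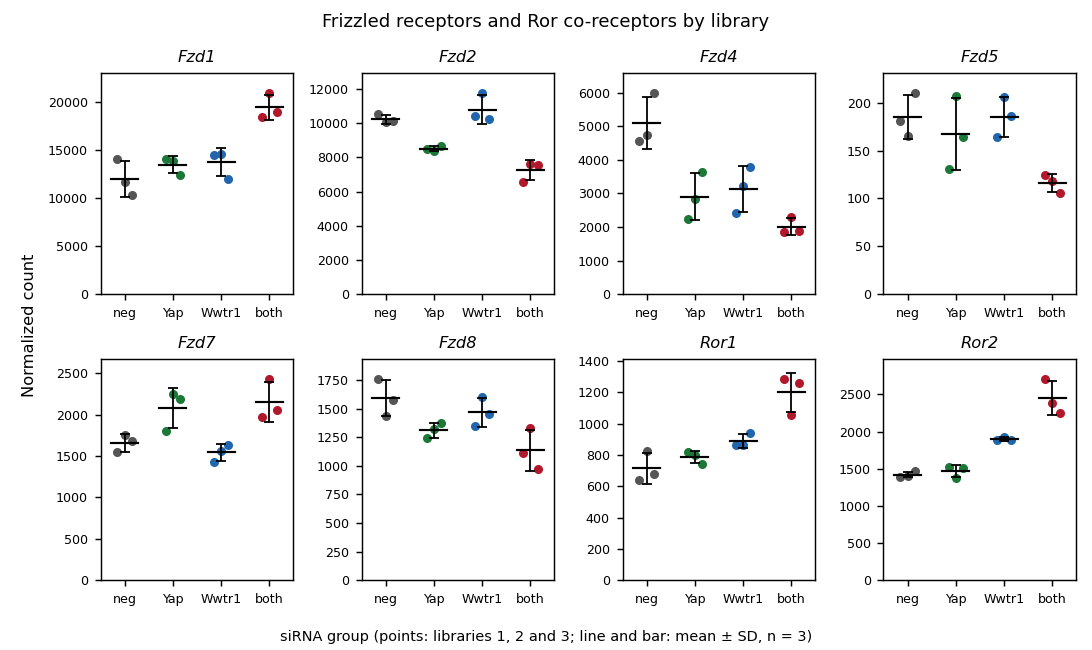
Normalized counts (linear axes from 0) of 6 Frizzled receptors and both Ror co-receptors, with points for the libraries and lines and bars for the mean ± SD of 3 libraries in the negative (neg), Yap, Wwtr1 and Yap+Wwtr1 (both) siRNA groups. Fzd4 is lower in all 9 knockdown libraries, Fzd1 and Ror1 are higher and Fzd5 lower in the double knockdown, and Ror2 is higher after Wwtr1 siRNA and higher still in the double knockdown.

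The Ror co-receptors rose together in the double knockdown. Ror2, a receptor tyrosine kinase of non-canonical signalling, read 1395, 1406 and 1467 normalized counts in negative siRNA cells and 2704, 2384 and 2257 with both siRNAs. The log2 fold change of 0.78 (SE 0.08, adjusted p = 3.39e-05, limma) had the smallest adjusted p of any member. After Wwtr1 siRNA it was at 1882, 1932 and 1891 (log2 fold change 0.42, SE 0.08, adjusted p = 0.00605, limma), between the controls and the double knockdown without overlap. After Yap siRNA it was at 1519, 1380 and 1509, overlapping the controls. Ror1, its paralogue, rose from 641, 828 and 678 to 1284, 1059 and 1263 (log2 fold change 0.75, SE 0.11, adjusted p = 0.000412, limma). After Wwtr1 siRNA Ror1 was at 863, 864 and 938, above all controls, with an adjusted p of 0.102 without the replicate block and 0.122 with it over all 12 libraries (limma). With the block and the double knockdown left out it was 0.0498. It was also called after Wwtr1 siRNA without negative siRNA replicate 2 (adjusted p = 0.0418, limma).

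Of the canonical co-receptors, Lrp5 was singled out after its values were seen. It had 6949, 5844 and 6481 normalized counts in negative siRNA cells and 8642, 7803 and 7274 in the double knockdown (log2 fold change 0.30, SE 0.09, adjusted p = 0.0282, limma). The groups did not overlap, but the call was lost without double knockdown replicate 1 or 2 and without negative siRNA replicate 2 or 3, with adjusted p up to 0.107, and where only the 2 groups compared were fitted. Lrp6 had a log2 fold change of -0.20 in the double knockdown (95% confidence interval -0.53 to 0.13) and passed the test in none of the comparisons.

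Among the 9 secreted antagonists, 4 were higher in the double knockdown (Sfrp2, Sfrp4, Frzb and Dkk3) and none was called lower. This was 44.4% called, where all genes gave 32.8%, with 17.1% higher and 15.6% lower. Sfrp2, a secreted Frizzled-related protein also known for its action on collagen processing, rose most. It read 104, 85.0 and 62.0 normalized counts in negative siRNA cells, 453, 209 and 184 after Yap siRNA, 169, 132 and 146 after Wwtr1 siRNA and 408, 504 and 640 after both siRNAs. All 9 knockdown libraries lay above the highest control. The double knockdown level was 6.16-fold that of control (log2 fold change 2.62, SE 0.31, adjusted p = 0.000106, limma), and the Yap siRNA change was 1.65 (SE 0.31, adjusted p = 0.0146, limma). The Yap siRNA call was lost without negative siRNA replicate 3 (adjusted p = 0.0704, limma). The Wwtr1 siRNA change of 0.85 had an adjusted p of 0.124, and 0.106 with the replicate block over all 12 libraries (limma). It became 0.0213 with the block and the double knockdown left out, and 0.0403 without Yap siRNA replicate 1.

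Sfrp4, which shares the Frizzled-like domain of the Sfrp family, read 67.7, 96.0 and 114 normalized counts in negative siRNA cells, 165, 163 and 209 after Wwtr1 siRNA and 348, 416 and 233 after both siRNAs. The log2 fold changes were 0.97 after Wwtr1 siRNA (adjusted p = 0.0316) and 1.83 in the double knockdown (adjusted p = 0.000221) by limma. The first of these calls was lost in 5 of the 12 leave-one-out fits (adjusted p up to 0.11, without negative siRNA replicate 1), and the second in none. After Yap siRNA, Sfrp4 was at 145, 115 and 146, with a change of 0.57 that did not pass the test.

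Sfrp1 and Frzb (Sfrp3) were higher after Yap siRNA and not after Wwtr1 siRNA. Sfrp1 read 1592, 1241 and 1624 normalized counts in negative siRNA cells, 2321, 2000 and 2986 after Yap siRNA, 1396, 1025 and 1149 after Wwtr1 siRNA and 1624, 1569 and 2174 after both siRNAs. The Yap siRNA libraries lay above all others except double knockdown replicate 3, which fell among them. Its Yap siRNA change was 0.70 (SE 0.18, adjusted p = 0.0447, limma). That call was lost in 10 of the 12 leave-one-out fits and without a variance trend, and had an adjusted p of 0.00879 with the replicate block over all 12 libraries and 0.00131 with the block and the double knockdown left out. The Wwtr1 siRNA change of -0.32 passed the test in the second of these fits (adjusted p = 0.0488, limma) but not in the first (0.123). Frzb read 467, 232 and 321 in negative siRNA cells, 808, 520 and 645 after Yap siRNA, 327, 283 and 278 after Wwtr1 siRNA and 493, 508 and 707 after both siRNAs. The Yap siRNA and double knockdown libraries all exceeded the controls. The changes were 0.99 after Yap siRNA (adjusted p = 0.0412) and 0.78 in the double knockdown (adjusted p = 0.027) by limma. They were lost in 9 and 3 of the 12 leave-one-out fits, the latter being negative siRNA replicates 2 and 3 and double knockdown replicate 3 (adjusted p up to 0.104), and both where only the 2 groups compared were fitted. The Yap siRNA call of Frzb was also lost without a variance trend.

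Dkk3, a Dickkopf relative whose action on Wnt signalling depends on context, read 18844, 15034 and 14233 normalized counts in negative siRNA cells and 27338, 22818 and 20226 in the double knockdown (log2 fold change 0.55, SE 0.16, adjusted p = 0.0182, limma). The groups did not overlap. The call was lost without negative siRNA replicate 2 or 3 and without double knockdown replicate 1, with adjusted p up to 0.0761. Dkk2, which blocks the Lrp co-receptors, was low and scattered, at 19.5, 9 and 76.5 in negative siRNA cells and 8.20, 0 and 15.7 after Yap siRNA. It was called lower after Yap siRNA only with the replicate block and the double knockdown left out (adjusted p = 0.0462, limma). With the block over all 12 libraries the adjusted p was 0.0911. Sfrp5 was at 33.9, 57.0 and 39.3 in negative siRNA cells and 0, 10.2 and 12.2 after Wwtr1 siRNA, a difference with an adjusted p of 0.0787 without the block, 0.0436 with it over all 12 libraries and 0.0198 with it and the double knockdown left out (limma). DESeq2 on the recovered reads, with no block, gave it an adjusted p of 0.0466. In the double knockdown the antagonists not called had log2 fold changes of -1.33 (Sfrp5), -0.74 (Dkk2), 0.26 (Sfrp1), 0.16 (Wif1) and 0.05 (Dkk4). The signs for Dkk2 and Dkk4 changed in some fits that left out 1 library. Wif1 and Dkk4 passed the test in none of the comparisons, at 69.8 to 122 and 190 to 287 normalized counts over all libraries.

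The R-spondins bind Lgr receptors and keep Frizzled receptors at the surface. Rspo3, singled out after its values were seen, read 36.9, 12 and 17.6 normalized counts in negative siRNA cells, 54.3, 23.6 and 40.8 after Yap siRNA, 91.8, 61.2 and 48.8 after Wwtr1 siRNA and 63.7, 76.1 and 107 after both siRNAs. The Wwtr1 siRNA and double knockdown libraries all exceeded the controls. The log2 fold changes were 1.66 after Wwtr1 siRNA (adjusted p = 0.04) and 1.96 in the double knockdown (adjusted p = 0.00604) by limma. The first was lost in 7 of the 12 leave-one-out fits (adjusted p up to 0.153, without Wwtr1 siRNA replicate 1), with edgeR (adjusted p = 0.0569) and where only the 2 groups compared were fitted. Rspo1 was at 169, 122 and 136 in negative siRNA cells and at 46.7, 78.6 and 159 in the double knockdown. It was not called (log2 fold change -0.75, adjusted p = 0.146, limma), and without double knockdown replicate 3 the change was -1.21 with an adjusted p of 0.00918. Rspo2 stayed at or below 24.6 in all libraries.

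The feedback genes are induced by Wnt signalling in many tissues and restrain it. Axin2, a scaffold of the destruction complex and the most widely used readout of canonical signalling, read 80.0, 54.0 and 54.8 normalized counts in negative siRNA cells and 192, 149 and 355 in the double knockdown. The groups did not overlap, with replicate 3 highest. The log2 fold change was 1.79 (SE 0.42, adjusted p = 0.00704, limma), and it was 1.44 (adjusted p = 0.0221) without replicate 3. After Yap siRNA, Axin2 read 94.3, 138 and 165, above all controls, with a change of 1.05 that did not pass the test (adjusted p = 0.193, limma). After Wwtr1 siRNA it read 129, 39.8 and 73.2, on both sides of the controls.

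Nkd1 and Nkd2, the naked cuticle homologues that bind Dishevelled, moved in opposite directions. Nkd1 read 414, 463 and 545 normalized counts in negative siRNA cells, 661, 803 and 748 after Yap siRNA, 896, 1060 and 1135 after Wwtr1 siRNA and 871, 1064 and 1287 after both siRNAs. Every knockdown library lay above every control. The log2 fold changes were 0.64 (adjusted p = 0.0396), 1.12 (adjusted p = 0.0013) and 1.17 (adjusted p = 0.000189) by limma, so the double knockdown value lay close to that of Wwtr1 siRNA alone. The Yap siRNA call was lost in 8 of the 12 leave-one-out fits and without a variance trend, and had an adjusted p of 0.00382 with the replicate block over all 12 libraries. Nkd2 read 3990, 3976 and 4738 in negative siRNA cells, 3090, 2614 and 3370 after Wwtr1 siRNA and 2413, 2453 and 1535 after both siRNAs, each of these groups separate from the others. The double knockdown change was -1.02 (SE 0.17, adjusted p = 0.000991, limma) and -0.79 without replicate 3. The Wwtr1 siRNA change of -0.49 had an adjusted p of 0.107, and 0.13 with the block over all 12 libraries (limma). It became 0.000893 with the block and the double knockdown left out, and 0.0203 without double knockdown replicate 3. It was also called where only the 2 groups compared were fitted (adjusted p = 0.03, limma) and by DESeq2 (adjusted p = 0.0437). Rnf43, a ubiquitin ligase that removes Frizzled from the surface, had 0, 7 and 0 reads in negative siRNA cells and 20, 16 and 15 in the double knockdown. Without the filter on low values its adjusted p was 0.0858 by limma.

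**Figure D3:**
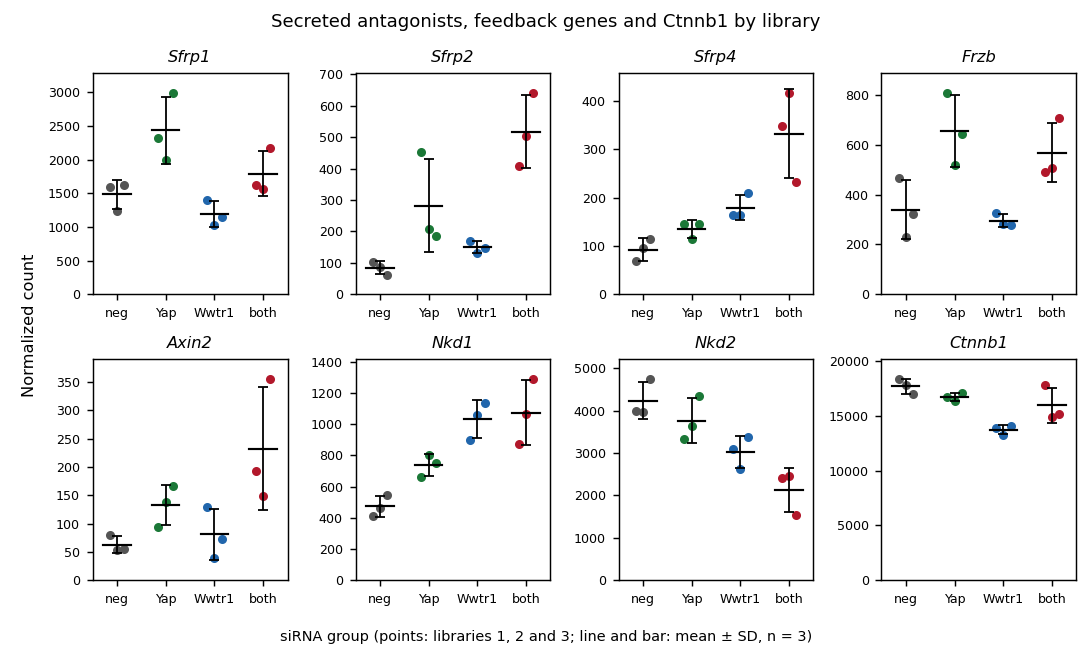
Normalized counts (linear axes from 0) of 4 secreted antagonists, 3 feedback genes and Ctnnb1, with points for the libraries and lines and bars for the mean ± SD of 3 libraries in the negative (neg), Yap, Wwtr1 and Yap+Wwtr1 (both) siRNA groups. Sfrp2, Nkd1 and Axin2 are higher and Nkd2 is lower in all double knockdown libraries, while Ctnnb1 is lowest after Wwtr1 siRNA.

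Of the 6 tested genes of the canonical branch inside the cell, Ctnnb1 was called after Wwtr1 siRNA. Ctnnb1 read 18328, 17770 and 16969 normalized counts in negative siRNA cells, 16725, 16374 and 17035 after Yap siRNA, 13861, 13270 and 14083 after Wwtr1 siRNA and 17806, 14929 and 15152 after both siRNAs. The Wwtr1 siRNA libraries were lower than all others, with a log2 fold change of -0.36 (SE 0.07, adjusted p = 0.00879, limma) that was called in each of the 12 leave-one-out fits. In the double knockdown the change was -0.15 (95% confidence interval -0.31 to 0.01, adjusted p = 0.129, limma), and it was called without double knockdown replicate 1 (-0.23, adjusted p = 0.0209). Apc and Gsk3b, both of the destruction complex, had double knockdown changes of -0.11 (95% confidence interval -0.39 to 0.16) and 0.04 (-0.26 to 0.33). Tcf7l1 and Tcf7l2 had changes of 0.07 (-0.27 to 0.41) and -0.16 (-0.38 to 0.06). Lef1 was low, at 34 to 61 normalized counts in negative siRNA cells and 26.9 to 64.9 in the double knockdown, with a change of 0.01 (-0.83 to 0.85). The sign of the Gsk3b, Tcf7l1 and Lef1 changes differed between fits that left out 1 library, and that of Lef1 also with TMM scaling, so no direction is given for them.

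After Yap siRNA alone, 6 of the 43 members were called (14%), 5 higher and 1 lower, where all genes gave 4.8%, with 3.02% higher and 1.78% lower. They were Wnt16, Sfrp1, Sfrp2, Frzb and Nkd1 among the higher and Fzd4 as the lower, and without Wnt16 the share was 11.9%. After Wwtr1 siRNA alone, 7 were called (16.3%), 5 higher and 2 lower, where all genes gave 8.96%, with 5% higher and 3.96% lower. They were Wnt16, Ror2, Sfrp4, Rspo3 and Nkd1 among the higher and Fzd4 and Ctnnb1 as the lower, and without Wnt16 the share was 14.3%. With the replicate number as a block and the double knockdown left out, the Wwtr1 siRNA count was 13 (30.2%) and the Yap siRNA count was 9 (20.9%). The calls over all genes also rose in these fits, to 21.3% and 16.0%. With the block over all 12 libraries the counts were 8 after Wwtr1 siRNA, 7 after Yap siRNA and 22 in the double knockdown, where all genes gave 11.1%, 7.36% and 35.4%. The Yap siRNA count fell in most leave-one-out fits. It was 0 without negative siRNA replicate 3, and 1 without negative siRNA replicate 2, Yap siRNA replicate 1 or 2, or Wwtr1 siRNA replicate 2. It was 2 without Yap siRNA replicate 3 or double knockdown replicate 2, and 3 without negative siRNA replicate 1 or Wwtr1 siRNA replicate 3. Over all genes the Yap siRNA calls in these fits were between 0.935% (without Yap siRNA replicate 1) and 4.57% (without Yap siRNA replicate 3), also below the 4.8% of all libraries. Leaving out a library of the Wwtr1 siRNA or double knockdown group did not move the Yap siRNA fold changes, only their adjusted p. Frzb stayed at 0.99, with an adjusted p of 0.0531 without Wwtr1 siRNA replicate 1 (limma). The Wwtr1 siRNA count was 4 without Wwtr1 siRNA replicate 1 or 2, where all genes gave 4.78% and 4.62%. The comparisons share the negative siRNA libraries. A call in one group and not in another does not show that the groups differ.

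Yap siRNA and Wwtr1 siRNA were therefore compared with each other. The test called 7 of 43 members, 4 of them higher after Yap siRNA (Fzd7, Sfrp1, Frzb and Ctnnb1) and 3 lower (Wls, Fzd2 and Ror2). All genes gave 8.79%, with 4.57% higher and 4.22% lower. The differences between the single knockdowns (Yap minus Wwtr1, log2) were 1.02 for Sfrp1 (SE 0.18, adjusted p = 0.00554) and 1.13 for Frzb (SE 0.24, adjusted p = 0.0152) by limma. For neither gene did the Yap siRNA libraries overlap those of Wwtr1 siRNA. With the replicate block and the double knockdown left out, 13 were called (30.2%), where all genes gave 22.6%. The 6 added were Apc (adjusted p = 0.0397), Nkd1 (0.00449), Nkd2 (0.0104), Wnt11 (0.0115), Wnt5a (0.0458) and Sfrp2 (0.0264), by limma. Of these 6, Nkd1 (0.0118) and Wnt11 (0.0225) were called with the block over all 12 libraries, which called 9 in all and 10.6% of all genes. With no block, DESeq2 called Nkd1 (adjusted p = 0.0332) and Sfrp2 (0.043), and limma called Nkd1 where only the 2 groups compared were fitted (0.0487). Limma with no block also called Wnt11 without Yap siRNA replicate 3 (adjusted p = 0.0143) and Wnt5a without Yap siRNA replicate 1 (0.0467). It called Nkd1 without double knockdown replicate 3 (0.0401). Without the block, 1 was called without Wwtr1 siRNA replicate 2, 2 without Yap siRNA replicate 2, and 4 without Yap siRNA replicate 1 or Wwtr1 siRNA replicate 3. In these fits all genes gave 3.66% to 4.84%.

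Whether the double knockdown differed from the sum of both single effects was tested as an interaction on the log2 scale. No member was called by limma or edgeR, and 9 (20.9%) had an unadjusted p under 0.05, as did 14% of all genes. Limma called 1.03% of all genes, with 0.421% higher and 0.607% lower. DESeq2 on the recovered reads called 2 members (4.65%), Wls (adjusted p = 0.00262) and Wnt5a (adjusted p = 0.033), where it called 4.21% of all genes. With the block over all 12 libraries limma also called no member, and 1.95% of all genes. For Wnt5a the double knockdown exceeded the sum by 0.73 (95% confidence interval 0.31 to 1.16, adjusted p = 0.104, limma), and it was called without Yap siRNA replicate 1 (0.87, adjusted p = 0.0485). Wls fell below the sum by -0.32 (-0.50 to -0.14, adjusted p = 0.0883, limma). Nkd1 also lay below it, by -0.59 (-1.07 to -0.12, adjusted p = 0.236, limma), since its 2 single changes together exceeded that of the double knockdown. For Sfrp2 the interval ran from -0.85 to 1.09, and for Fzd4 from -0.39 to 0.80, so departures within these ranges in either direction were not excluded.

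**Figure D4:**
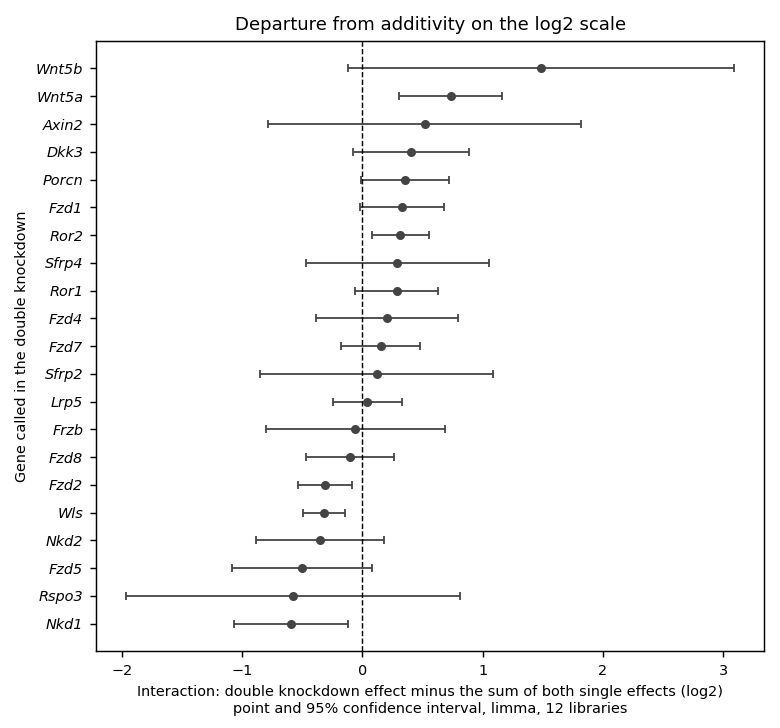
Interaction on the log2 scale (horizontal axis: the change in the double knockdown less the summed single changes) for 21 of the 22 members called in the double knockdown, with points for the estimate and bars for the 95% confidence interval from limma over 12 libraries. The bars of Wnt5a and Ror2 lie above 0 and those of Fzd2, Wls and Nkd1 below it, while none of the 21 passed adjustment over all genes. Fzd6 (-0.84), Wnt9a (0.82) and Ctnnb1 (0.29) were not called in the double knockdown and are not plotted. Their intervals also excluded 0, and they did not pass adjustment either. Wnt16 is not plotted, since its control libraries held 5, 0 and 0 reads and its value depends on the pseudocount.

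Beyond the members, a list of 69 other pathway genes was examined, of which 55 were tested. In the double knockdown 17 of them were called (30.9%), 11 higher and 6 lower, close to the 32.8% of all genes. After Yap siRNA and after Wwtr1 siRNA 4 were called each (7.27%), where all genes gave 4.8% and 8.96%. Between the single knockdowns 4 were called (7.27%, all genes 8.79%), and in the interaction 2 (3.64%, all genes 1.03%), Gpc3 (-0.68) and Tnik (-1.36). Igfbp4, a secreted protein known to bind Lrp6 and Frizzled, read 1097, 678 and 520 normalized counts in negative siRNA cells and 3855, 3318 and 17511 in the double knockdown. All double knockdown libraries were higher, with replicate 3 far above the rest (log2 fold change 3.06, SE 0.51, adjusted p = 0.000899, limma). Without that replicate the change was 2.29 (adjusted p = 0.000186). The transcription factor genes Nfatc1 and Nfatc4 of the calcium branch rose by 1.10 and 0.97, and the glypican Gpc4 fell by 1.19 on the log2 scale.

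A second list held 27 genes described elsewhere as targets of beta-catenin and Tcf/Lef, none of them a member. Of the 23 tested, 7 were called in the double knockdown (30.4%), 3 higher and 4 lower, close to the 32.8% of all genes. Twist1 (0.52), Ccnd1 (0.50) and Mmp2 (0.85) were higher, and Jag1 (-1.85), Bmp4 (-1.23), Sox9 (-1.11) and Myc (-0.64) were lower on the log2 scale. The list as a whole did not move in 1 direction, its median change being -0.01. Ccnd1, encoding cyclin D1, had changes of 1.09 after Wwtr1 siRNA, 0.59 after Yap siRNA and 0.50 in the double knockdown. After Yap siRNA 3 of the 23 were called (13%, all genes 4.8%), which were Ccnd1, Twist1 and Jag1. After Wwtr1 siRNA 2 were called (8.7%, all genes 8.96%), and between the single knockdowns 3 (13%, all genes 8.79%). In the interaction 3 were called (13%, all genes 1.03%): Ccnd1 (-1.19, adjusted p = 0.00524), Bmp4 (-1.02, adjusted p = 0.0401) and Mmp2 (1.12, adjusted p = 0.0103), by limma. The genes named from both lists were singled out after their values were seen.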

How the data were processed

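RNA was measured in 12 cultures, 3 in each of 4 siRNA groups, which were taken from the sample titles. Per the labels and methods, the authors trimmed reads with Trim Galore 0.6.5, aligned them to build rn6 with HISAT2, estimated abundance with StringTie and normalized with DESeq2. The deposited signal values are counts that the authors divided by 1 size factor per library. Values were checked to be whole multiples of 1 step in each library (100% of 147252 within 0.05 of a whole read), which gave 33.9 to 41.1 M reads per library. The methods state a lower depth, so the unit may not be a single read (both mates of a pair, or coverage, could give such totals). The authors also deposited fold changes and p-values of their own, which were not used. Columns of per-sample values without a matching sample numbered 0.

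All 12 libraries entered 1 limma fit (3.58.1, R 4.3.3) of log2(normalized count + 1) with a variance trend and no covariates. The 11871 genes whose mean reached 10 were tested, p-values were two-sided and adjusted over all of them by Benjamini-Hochberg, and the threshold was 0.05. Fold changes of low genes depend on this scale and differed from those of DESeq2 in either direction. Sfrp5 after Wwtr1 siRNA had -3.03 by limma and -2.54 by DESeq2, and Dkk2 in the double knockdown had -0.74 and -1.23. The limma fit was tested on simulated data. Zeros can be failed estimates, and whether counting used strand is not given in the sources used here. Levels were not compared between genes, since no transcript lengths were used.

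The same-numbered libraries of the negative, Yap and Wwtr1 siRNA groups deviated together (9 correlations of 0.104 to 0.276), and the methods speak of separate litters. They were therefore taken as paired in the fits with a replicate block. The main fit, with its counts and p-values, left this pairing out. With double knockdown libraries the correlations ran from -0.127 to 0.180. A replicate block with the double knockdown left out was added after seeing the data. Replicates differed by more than sampling noise.

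The members and lists were chosen with earlier results of these data known. The naming rule was the 20 called members with the largest change and a mean of at least 100, plus Ctnnb1, Axin2 and Lef1. Other members are named to account for all 46, after their values were seen. Other settings tried were a pseudocount of 0.1 or 10, no filter or a higher one, TMM scaling, edgeR 4.0.16 and DESeq2 1.42.0 run on reads recovered from the steps, the compared groups alone, no trend, the block, and leaving out each library.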

Additional observations from a re-analysis of the deposited data

Results flagged for a closer look

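For 7 members the change after Yap siRNA differed from that after Wwtr1 siRNA by a limma test of the difference itself (Yap minus Wwtr1 siRNA, log2, adjusted over all genes). The difference was 1.13 for Frzb (adjusted p = 0.0152), 1.02 for Sfrp1 (adjusted p = 0.00554), 0.423 for Fzd7 (adjusted p = 0.0311) and 0.283 for Ctnnb1 (adjusted p = 0.0331), all higher after Yap siRNA. It was -0.373 for Ror2 (adjusted p = 0.0127), -0.341 for Fzd2 (adjusted p = 0.0158) and -0.26 for Wls (adjusted p = 0.0177), all lower after Yap siRNA. The call of Sfrp1 held in all 12 leave-one-out fits. Those of Ror2, Frzb, Fzd2, Wls, Fzd7 and Ctnnb1 were lost in 2, 3, 3, 3, 5 and 6 of them, with adjusted p up to 0.126 (Ctnnb1 without Wwtr1 siRNA replicate 2, limma). Those of Fzd7 and Ctnnb1 were also lost without a variance trend, and that of Wls where only the 2 groups compared were fitted. With the replicate block and the double knockdown left out, all 7 were called.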

How the results depend on the processing

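No called change of a member turned direction under the alternatives run. Of the members not called, 8 of 21 changed sign in the double knockdown under at least 1 alternative, 14 of 36 after Wwtr1 siRNA, 11 of 37 after Yap siRNA, 9 of 36 between the single knockdowns and 16 of 43 in the interaction. Lef1 in the double knockdown turned from 0.01 to -0.000621 with TMM scaling, and ran from -0.22 to 0.40 when 1 library was left out. The double knockdown count of 22 stayed within 17 to 22 members when 1 library was left out (17 without negative siRNA replicate 3, while calls over all genes ran from 23.1% to 34.2% and were fewest in the same fit) and within 19 to 22 under the other settings. The 19 came with the filter at a mean of 100, where only 32 members were tested. There 59.4% of the members were called and 36.1% of all genes. Leave-one-out counts ran from 0 to 6 in the Yap siRNA comparison, from 4 to 8 in the Wwtr1 siRNA comparison, from 1 to 8 between these siRNAs and from 0 to 1 in the interaction. Calls over all genes moved in these fits too. They ran from 0.935% to 6.44%, 4.62% to 12%, 3.66% to 11.9% and 0.261% to 1.35% in the same order. The Wwtr1 siRNA count was 4 without Wwtr1 siRNA replicate 1 or 2. Without a variance trend, the Yap siRNA count was 2, and calls over all genes fell from 4.8% to 2.48%. DESeq2 on the recovered reads called 2 members for the interaction, where limma called 0, and 4.21% of all genes where limma called 1.03%. The cause of these shifts was not tested. With the replicate block and the double knockdown left out, 13 members were called for Wwtr1 siRNA and 13 for Yap against Wwtr1 siRNA, in place of 7 and 7, and 9 for Yap siRNA in place of 6, while the calls over all genes rose to 21.3%, 22.6% and 16.0%. Every member called without this block was also called with it. The block over all 12 libraries gave 22 calls for the double knockdown, 8 for Wwtr1 siRNA, 7 for Yap siRNA, 9 between the single knockdowns and 0 in the interaction. Over all named results, 108 of the values that left out 1 library lost their call, while 416 kept the same outcome. Under other settings 19 lost it and 433 kept the same outcome. At this depth, genes with few reads (Wnt16, Rnf43, Dkk2, Sfrp5 and Rspo2 among them) had libraries at 0, and their fold changes depend on the pseudocount.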
